A study of Mus musculus with 5 samples.

Results

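The genes described here are 10 acute-phase and pancreatitis stress genes, Nupr1, Lcn2, Lrg1, Saa3, Hp, C3, Socs3, Il33, Steap4 and Cp, taken by symbol as a set known from inflammation and pancreatic injury. All 10 were present among the 23284 gene symbols counted in each library. The samples were freshly isolated primary acinar cells, which make and secrete the digestive enzymes of the pancreas. The mice were C57BL/6 and 8 weeks old. The knockout group was 3 libraries with the genotype Arid1afl/fl;p48-Cre. There both Arid1a alleles are floxed and cut by Cre, and the gene encodes a DNA-binding subunit of the SWI/SNF chromatin remodelling complex. The control group was 2 libraries of p48-Cre mice, so that both groups carried the Cre driver. The p48 locus, also named Ptf1a, drives Cre in pancreatic progenitors, so that acinar, duct and islet cells can all be recombined. In both groups the pancreas was minced, spun at low speed to remove vessels and fat, and digested, and the cells recovered in serum-containing medium before RNA extraction. The labels do not say whether each library came from a separate animal, so p-values measure library-to-library spread that may be technical. The comparison of knockout with control cells asks how the acinar transcriptome differs when Arid1a is lost.

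The acute-phase response is the rise in secreted defence, transport and repair proteins that follows injury. Interleukin-6-type cytokines drive it through the receptor chain gp130 and the transcription factor STAT3, and interleukin-1 and tumour necrosis factor act alongside through NF-kappaB and C/EBP factors. The liver is its main source, but acinar cells respond as well: Nupr1 was discovered in the rat as a transcript induced in pancreatitis, and Lcn2, Saa3 and C3 are also known from the inflamed pancreas.

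The knockout libraries held 3155357, 3568906 and 3345121 counts after Rn45s, the ribosomal RNA precursor, and Lars2 were set aside, and the control libraries 67514 and 72006. CPM, a gene's counts scaled to an equal library total, refer to these totals. Rn45s took 6.78% to 10.9% of all counts in the knockouts and 72.6% and 82.2% in the controls, so depth and Rn45s share separated the groups exactly as genotype did, and a genotype effect and a difference in library quality cannot be told apart. A level of 3 counts, used as the floor of detection, was 21.5 CPM over both controls together, and it was 0.841 to 0.951 CPM in a single knockout library. The 1451 olfactory and vomeronasal receptor genes, which are not acinar genes, summed to 11.7 to 32.6 CPM in the knockouts and to 1511 and 1417 CPM in the controls. Arid1a had 44, 121 and 42 counts in the knockouts and 0 and 3 in the controls, too few to check the genotype, and the whole-gene count includes undeleted exons. The 13 acinar markers in the files summed to 450350, 408380 and 432850 CPM in the knockouts and 418480 and 490260 CPM in the controls. Of the 12 tested, 2 were called lower (edgeR): Cela2a, an elastase, had 7868, 9560.4 and 9341 CPM in the knockouts and 41814 and 62814 CPM in the controls (adjusted p = 7.53e-05, edgeR), and Cel, a lipase, had 3429, 5494 and 5580.1 CPM in the knockouts and 11657 and 35150.0 CPM in the controls (0.0055, edgeR). Amy2a5, one of several near-identical amylase copies, had no count in any library, and Ptf1a had none in the controls. Intervals and floors cover counting error only, and the spread between libraries of a group exceeded it. A chi-square statistic over its degrees of freedom, about 1 under counting error alone, was 30.9 between the controls. It was 29.9 to 103 between pairs of knockouts, in each case over genes with at least 20 counts in the pair.

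Because several of these genes were higher in the knockout libraries, the DNA before their starts is shown. RefSeq promoters of GRCm38.p6 matched 9 of the 10 genes by symbol. Il33 and Cp had 2 starts each, and Hp was not in the table. The 250 bases before the start were searched on both strands for a STAT motif (TTCNNNGAA), a C/EBP motif (TTGCNNAA), a C/EBP-ATF composite motif (TGATGNAA) and the NF-kappaB motif. Shown 5′ to 3′, with matches in capitals, are the 5 tested members with a higher observed CPM in every knockout library than in either control, and Steap4, which was close to absent.
Nupr1, GRCm38.p6, chr7:126625471-126625720, minus strand: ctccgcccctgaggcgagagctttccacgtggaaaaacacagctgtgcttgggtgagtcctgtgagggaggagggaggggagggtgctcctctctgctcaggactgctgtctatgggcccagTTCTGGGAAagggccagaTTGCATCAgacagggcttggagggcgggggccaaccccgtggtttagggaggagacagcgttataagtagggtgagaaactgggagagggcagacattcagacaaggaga
Lcn2, GRCm38.p6, chr2:32387740-32387989, minus strand: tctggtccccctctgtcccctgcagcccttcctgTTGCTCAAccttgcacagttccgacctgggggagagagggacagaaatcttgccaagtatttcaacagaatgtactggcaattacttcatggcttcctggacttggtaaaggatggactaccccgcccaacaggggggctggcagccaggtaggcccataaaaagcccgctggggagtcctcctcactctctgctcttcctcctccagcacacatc
Lrg1, GRCm38.p6, chr17:56121947-56122196, minus strand: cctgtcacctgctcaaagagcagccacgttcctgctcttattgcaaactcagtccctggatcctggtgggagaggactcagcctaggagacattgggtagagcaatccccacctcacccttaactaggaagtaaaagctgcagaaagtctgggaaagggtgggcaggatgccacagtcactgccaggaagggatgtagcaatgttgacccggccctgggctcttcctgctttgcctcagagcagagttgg
C3, GRCm38.p6, chr17:57228137-57228386, minus strand: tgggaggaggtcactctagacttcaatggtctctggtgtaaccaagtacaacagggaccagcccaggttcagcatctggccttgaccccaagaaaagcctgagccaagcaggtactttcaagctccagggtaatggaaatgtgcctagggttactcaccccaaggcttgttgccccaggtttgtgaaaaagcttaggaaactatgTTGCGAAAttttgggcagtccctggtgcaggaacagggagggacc
Socs3, GRCm38.p6, chr11:117969367-117969616, minus strand: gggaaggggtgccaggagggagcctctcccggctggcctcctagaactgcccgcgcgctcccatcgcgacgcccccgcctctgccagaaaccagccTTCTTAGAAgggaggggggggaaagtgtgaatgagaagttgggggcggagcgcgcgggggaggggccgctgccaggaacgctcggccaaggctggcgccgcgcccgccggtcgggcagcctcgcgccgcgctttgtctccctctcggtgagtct
Steap4, GRCm38.p6, chr5:7960222-7960471, plus strand: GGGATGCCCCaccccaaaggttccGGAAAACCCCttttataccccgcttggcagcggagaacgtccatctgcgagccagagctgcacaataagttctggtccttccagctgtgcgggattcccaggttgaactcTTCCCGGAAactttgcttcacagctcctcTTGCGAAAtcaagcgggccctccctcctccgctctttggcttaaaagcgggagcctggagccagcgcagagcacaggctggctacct
Nupr1 held a STAT match at bases -128 to -120 from the start and a C/EBP-ATF match at -110 to -103. Socs3 held a STAT match at -154 to -146, and Lcn2 and C3 each held a C/EBP match, at -216 to -209 and -45 to -38. Lrg1 held no match to the 4 motifs. Steap4 had the most matches of these promoters: 1 STAT, 1 C/EBP and 2 NF-kappaB. Among the 9 members with a promoter, 3 held the STAT motif (Nupr1, Socs3 and Steap4). The C/EBP motif was held by 6: C3, Cp, Il33, Lcn2, Saa3 and Steap4. Of these, Il33, Saa3 and Steap4 had too few counts to be tested, and Cp did not separate the groups. The C/EBP-ATF motif was held by 1, Nupr1, and the NF-kappaB motif by 1, Steap4. Of the 32841 windows in the table, searched over the same 250 bases, 7.02% held the STAT motif, 9.57% the C/EBP motif, 3.45% the C/EBP-ATF motif and 3.9% the NF-kappaB motif. Counted per gene, as the members are, the shares of 27018 genes were 8.13% for STAT, 10.8% for C/EBP, 3.9% for C/EBP-ATF and 4.46% for NF-kappaB. A match is a description of the letters only, and a link to the levels in these libraries was not tested.

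Lrg1, a secreted leucine-rich glycoprotein that modulates TGF-beta signalling in endothelial cells, was higher in the knockout libraries. It had 1152, 641 and 218 counts in the knockout libraries, equal to 365, 180 and 65.2 CPM, and no count in either control. Every knockout library stood above both controls, and knockout 1 stood 5.6-fold above knockout 3. The pooled knockout level of 199.7 CPM was at least 9.29-fold higher than the control floor of 3 counts, and the lower limit of the exact 95% interval of the ratio was 7.55. At the knockout level both controls together would have held 27.9 counts. The bound was 4.79 without control 1, 4.49 without control 2 and 5.78 without knockout 1. The lower limit of the ratio was 13.8 for knockout 1 alone, 6.77 for knockout 2 alone and 2.44 for knockout 3 alone. Lrg1 was the 1 member called by edgeR's quasi-likelihood test (adjusted p = 0.0379 over 8291 genes, higher in 3 of 3 knockout libraries). The same test called 0.193% of all genes higher and 1.6% lower. Of the 442 genes that would have given at least 10 control counts at their knockout level, 9.73% had none in either control, and Lrg1 and C3 were among them.

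The call for Lrg1 rested on few libraries. It was lost without knockout 1 (adjusted p = 0.866, edgeR), without knockout 2 (0.0554), without control 1 (0.0845) and without control 2 (0.101), and it was kept without knockout 3 (0.0155). It was also lost with TMM scaling on all genes (adjusted p = 0.0572, edgeR), which called 0.0605% of genes higher, and with limma-voom (0.659). Its adjusted p was 0.0118 in DESeq2.

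**Figure D1:**
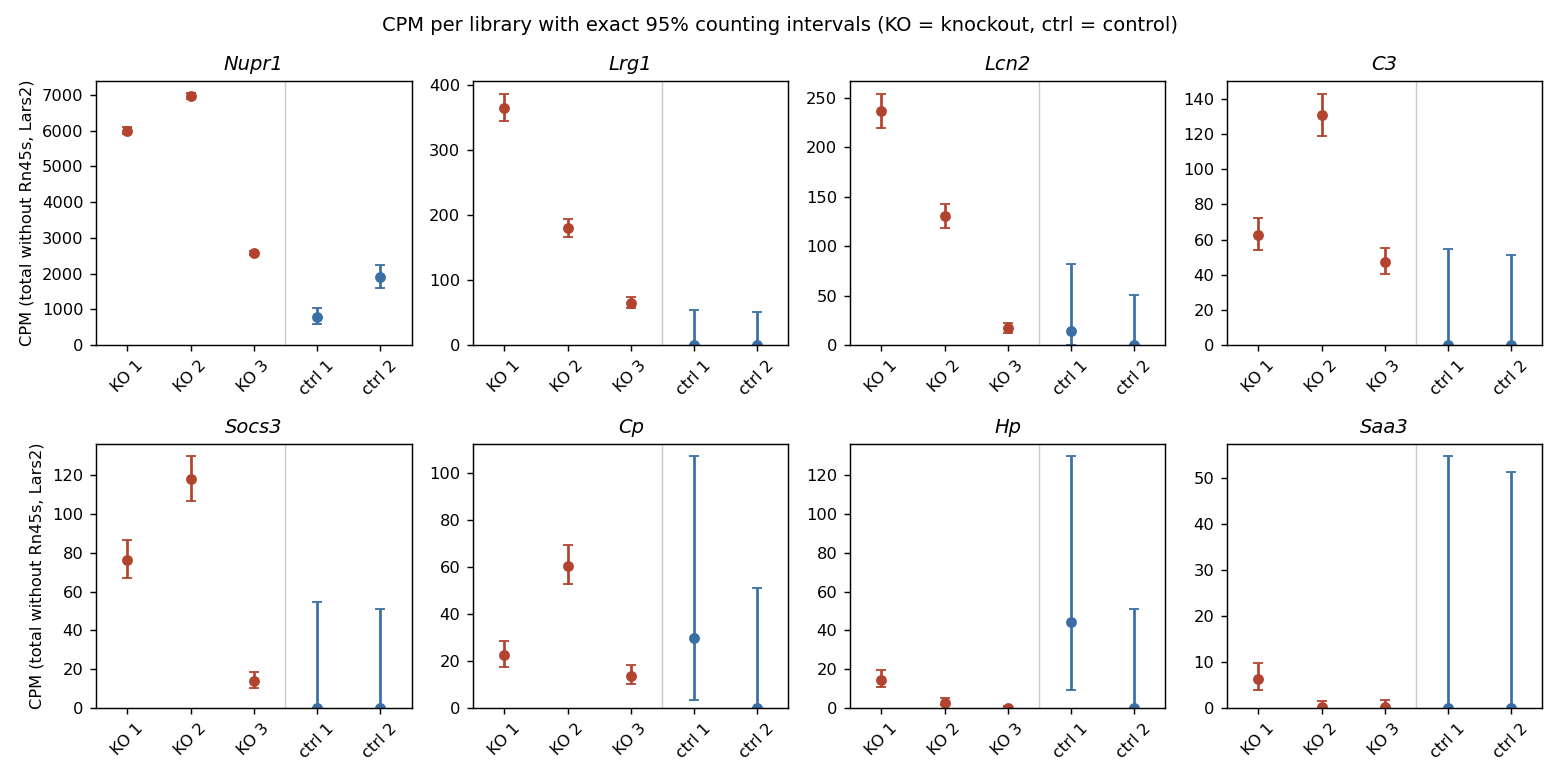
CPM of 8 members in each library, the 3 knockout libraries (KO, red) left of the 2 control libraries (ctrl, blue). Points are the library's value and bars its exact 95% counting interval, and each panel has its own linear axis from 0. Control bars for genes without a count reach 51.2 to 54.6 CPM, above several knockout values.

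Nupr1, a small chromatin-associated stress protein of acinar cells, was by far the most abundant member. It stood at 6001, 6974 and 2571 CPM in the knockout libraries and at 799.8 and 1903 CPM in the control libraries, or 5182 ± 2313 CPM against 1351 ± 779.8 CPM (SD, n = 3 knockouts and 2 controls). The groups did not overlap, but knockout 3 lay closer to control 2 than to the other knockouts. The 191 control counts made this the 1 member whose ratio was well determined by depth, 3.80 with an exact 95% interval of 3.30 to 4.41. Taken singly, knockouts 1, 2 and 3 stood at 4.38, 5.09 and 1.88 times the pooled controls, and no interval of these ratios reached 1. The ratio was 2.74 without control 1 and 6.51 without control 2, so the spread between the controls moved it more than counting error did. The log2 fold change was 1.94 ± 0.72 (SE), against a median of 0.22 over all tested genes, and it did not pass the test (adjusted p = 0.143, edgeR). No setting called Nupr1, and its smallest adjusted p was 0.0561, with TMM factors computed without Rn45s and Lars2.

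Lcn2, neutrophil gelatinase-associated lipocalin, binds bacterial siderophores and so withholds iron. It had 747, 465 and 57 counts in the knockouts (237, 130 and 17.0 CPM) and 1 and 0 counts in the controls (14.8 and 0 CPM). The knockout libraries differed 13.9-fold among themselves, and knockout 3 exceeded control 1 only by the difference between 17.0 and 14.8 CPM. The pooled levels had a ratio of 17.6 (exact 95% interval 3.15 to 695). Knockout 1 alone gave 33.0 (5.91 to 1306) and knockout 2 alone 18.2 (3.25 to 720), whereas knockout 3 alone gave 2.38 (0.410 to 95.5), so that no difference could be detected there. Without control 1, which held the 1 count, the level was at least 3.02-fold higher than the floor of control 2. The ratio was 8.51 without control 2 and 10.5 without knockout 1. Lcn2 did not pass the test (log2 fold change 4.14 ± 1.78, SE; adjusted p = 0.251, edgeR). Its adjusted p came nearest to the threshold with TMM factors computed without Rn45s and Lars2 (0.0510, edgeR).

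C3, the central component of complement, had 198, 466 and 159 counts in the knockouts (62.8, 131 and 47.5 CPM) and none in the controls. All 3 knockout libraries were above both controls, and they differed 2.75-fold among themselves, with knockout 2 the highest. The pooled level was at least 3.80-fold higher than the control floor, with a lower interval limit of 3.08, and 11.4 counts would have been met in the controls at the knockout level. The bound was 1.96 without control 1 and 1.84 without control 2. The lower limit was 2.35, 4.92 and 1.78 for knockouts 1, 2 and 3 taken singly. C3 did not pass (adjusted p = 0.198, edgeR), but was called by DESeq2 (0.0485), which called 0.567% of genes higher, and with TMM factors computed without Rn45s and Lars2 (0.0440, edgeR), which called 1.77% higher and put the median log2 fold change of all genes at 1.93.

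Socs3, the feedback inhibitor that binds gp130 and the associated JAK kinases and so limits STAT3 signalling, had 241, 421 and 46 counts in the knockouts (76.4, 118 and 13.8 CPM). It had none in the controls. Knockouts 1 and 2 were above the control floor, and knockout 3 was below it. The pooled level was at least 3.27-fold higher than the floor, with a lower interval limit of 2.65, but the lower limit for knockout 3 alone was 0.50. The bound was 1.69 without control 1, 1.58 without control 2 and 2.05 without knockout 2. Socs3 did not pass (adjusted p = 0.243, edgeR), and 15.8% of the genes expected to give 5 to 30 control counts had none. It was called with TMM factors computed without Rn45s and Lars2 (0.0471, edgeR).

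Cp, the copper-carrying ferroxidase ceruloplasmin, did not separate the groups. It had 71, 216 and 46 counts in the knockouts (22.5, 60.5 and 13.8 CPM) and 2 and 0 in the controls (29.6 and 0 CPM). Control 1 was above knockouts 1 and 3. The pooled ratio of 2.31 had an exact 95% interval of 0.634 to 19.1, and the adjusted p was 0.717 (edgeR). Knockout 2 alone gave 4.22 (1.15 to 35.1), against 1.57 (0.419 to 13.2) for knockout 1 and 0.959 (0.251 to 8.16) for knockout 3. The ratio was 1.12 without control 2 and 1.26 without knockout 2, and without control 1 no control count was left. Its exons overlap those of Hps3 on the opposite strand over 108 bases, 1.86% of its exon length, and reads there could not be assigned by strand with this kit.

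Hp, haptoglobin, which captures free haemoglobin, pointed the other way without passing the test. It had 46, 10 and 0 counts in the knockouts (14.6, 2.80 and 0 CPM) and 3 and 0 in the controls (44.4 and 0 CPM). Control 1 was above all knockouts and control 2 at 0, so the groups overlapped. The pooled levels had a ratio of 0.259 (exact 95% interval 0.0841 to 1.29; log2 fold change -1.91 ± 1.65, SE; adjusted p = 0.586, edgeR). Knockout 1 alone gave 0.678 (0.218 to 3.41), knockout 2 alone 0.130 (0.0336 to 0.737), and knockout 3, with no count, had an upper limit of 0.101. The pooled ratio was 0.125 without control 2, 0.0673 without knockout 1, and 1.48 when CPM were scaled to totals that include Rn45s and Lars2.

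Saa3, Il33 and Steap4 did not pass the low-count filter and were not tested. Saa3, the serum amyloid A of macrophages and epithelia, had 20, 1 and 1 counts in the knockouts and none in the controls, so 20 of its 22 counts came from knockout 1, at 6.34 CPM. The controls would have held 0.305 counts at that pooled level, too few for a difference to be seen. Il33, a nuclear alarmin cytokine of the interleukin-1 family, had 2, 6 and 0 counts in the knockouts and 2 and 0 in the controls. The ratio of its pooled levels was 0.0554 (exact 95% interval 0.0111 to 0.536), which rests on 2 counts of control 1. It was 0.0268 without control 2 and 0.0215 without knockout 2. Without control 1 no control count of Il33 was left, so that no fall could be seen. Steap4, a metalloreductase that reduces iron and copper, had 0, 2 and 0 counts in the knockouts and none in the controls.

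All 8 control counts of the members other than Nupr1 were in control 1: 3 of Hp, 2 each of Il33 and Cp, and 1 of Lcn2. The same 9 genes summed to 785, 624 and 158 CPM in the knockouts and to 118 CPM (exact 95% interval 51.2 to 233) and 0 CPM (0 to 51.2) in the controls. The receptor genes given above averaged 0.00808 to 0.0225 CPM a gene in the knockouts and 1.04 and 0.976 CPM a gene in the controls. Their part in the low control values of Hp, Il33 and Cp was not tested.

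**Figure D2:**
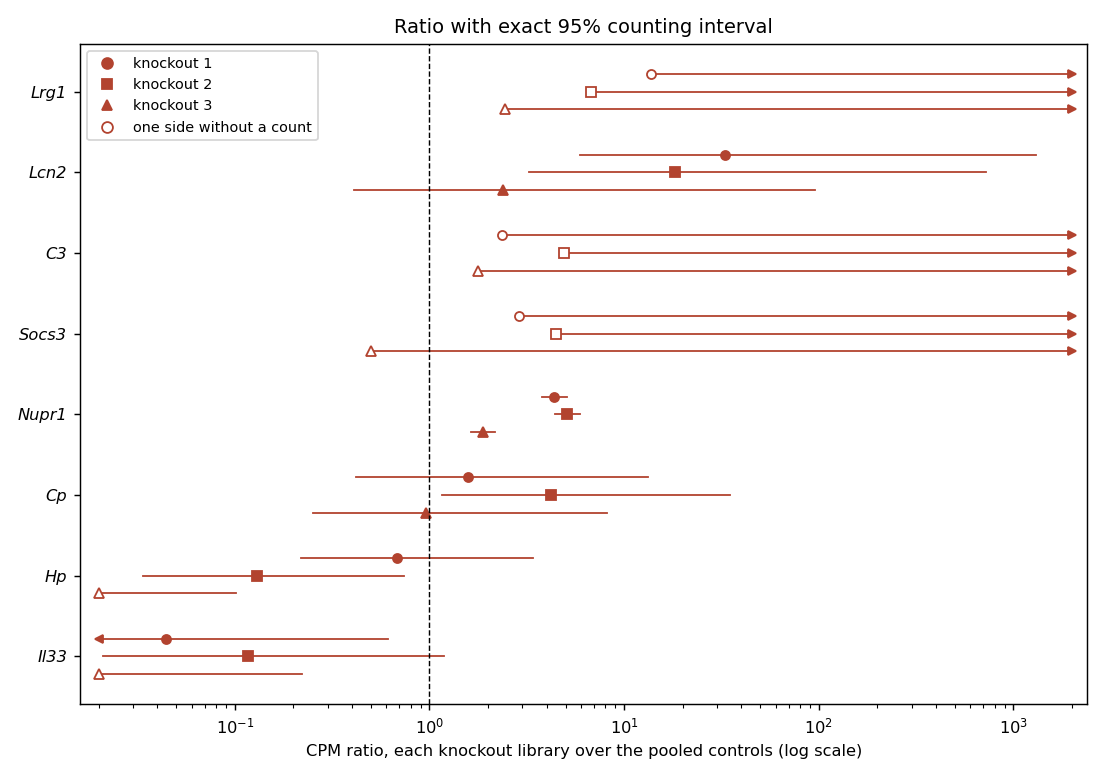
Ratio of CPM in each knockout library to the pooled controls for 8 members, on a log axis, with exact 95% counting intervals. Filled symbols are ratios. Open symbols on the right stand at the lower limit where the controls had no count, open symbols at the left edge mark a knockout library without a count, and arrows mark intervals that run past the axis. The intervals of Lrg1, C3 and Nupr1 stay above 1 in all 3 knockouts, and those of Lcn2 and Socs3 do so in knockouts 1 and 2 and that of Cp in knockout 2. The intervals of Hp lie below 1 in knockouts 2 and 3, and those of Il33, which rest on 2 control counts, in knockouts 1 and 3.

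Per kilobase of exon, the scale on which genes can be compared, Nupr1 averaged 6251 CPM per kb in the knockouts. Lrg1 (144) and Lcn2 (140) followed, then Socs3 (27.2), C3 (15.6), Cp (5.56), Hp (4.31), Saa3 (0.885), Il33 (0.296) and Steap4 (0.0592 CPM per kb). Lrg1 and Lcn2 could not be ordered, since Lrg1 ran from 46.3 to 259 and Lcn2 from 18.6 to 259 CPM per kb over the 3 knockouts. Likewise Socs3 ran from 5.39 to 46.2 and C3 from 9.25 to 25.4 CPM per kb. In the controls Nupr1 stood at 965 and 2295 CPM per kb, and no other member exceeded 33.0. Nupr1 gave 88.4%, 91.8% and 94.2% of the members' counts in the knockouts and 87.1% (exact 95% interval 76.1% to 94.3%) and 100% (97.3% to 100%) in the controls.

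Of the 10 members, 7 passed the filter, and 3 of these, Lrg1, C3 and Socs3, had no control count, as was so for 33.5% of all tested genes. With 3 knockout libraries far deeper than the controls, such genes could pass through the knockouts alone. Nupr1, Lrg1, Lcn2, C3 and Socs3 had a higher observed CPM in every knockout library than in either control, as did 35.6% of all tested genes. For Lcn2 and Socs3 in knockout 3 this was within counting error. Of the 7, all but Hp had a log2 fold change above the median of all genes, where 50.0% of genes lie by construction. This did not hold in every setting: against that setting's own median, Nupr1 stood at -0.11 with no low-count filter, -4.62 without control 1 and -2.88 without control 2. Cp stood at -0.91 with no low-count filter and -5.45 without control 2, and Lcn2 at -2.46 without control 2. The 5 also had an unadjusted p under 0.05 in the direction of a rise (edgeR), against 1.95% of all tested genes. No tested member had an unadjusted p under 0.05 for a fall (edgeR), against 11.0% of all tested genes, and none was called lower by edgeR, DESeq2 or limma-voom. Il33 was left out of this count by the main filter. With the filter of at least 1 CPM in 2 libraries its log2 fold change was -4.12. Its unadjusted p there was 0.0443 (edgeR), and it was not called (adjusted p = 0.35, edgeR). The median log2 fold change of the 7 was 4.14, against 0.22 over all tested genes. When genes lacking control counts were set at the floor, the median log2 pooled ratio was 1.93, against -1.11. These genes had been chosen with earlier results known, so this is a description.

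Over the knockout libraries the members mostly followed 1 of 2 orders. How many of all genes follow each order was not counted, and each position is 1 library. Lcn2, Lrg1, Hp and Saa3 were highest in knockout 1. In knockout 2, Lcn2, Lrg1 and Hp stood at 55.0%, 49.2% and 19.2% of their level in knockout 1. Nupr1, C3, Socs3 and Cp were highest in knockout 2 and stood at 86.0%, 48.1%, 64.7% and 37.2% of it in knockout 1. Knockout 3 was the lowest for each of these genes except Saa3, whose counts in knockouts 2 and 3 were 1 each. Among the 7 tested members, knockout 3 was at 0 for Hp and otherwise ran from 7.20% of the maximum for Lcn2 to 36.9% for Nupr1. Saa3 had 0.299 CPM in knockout 3, against 6.34 CPM in knockout 1.

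Markers of other cell types moved over the knockouts as well. Neutrophils are known, in humans, to store LCN2, LRG1 and haptoglobin in granules, and the 8 neutrophil markers in the files summed to 19.6, 15.7 and 2.39 CPM in the knockouts and to 0 in both controls. Each knockout sum lay under the control floor of 21.5 CPM, so the controls were too shallow to show a difference. Elane, Cxcr2 and Retnlg had at most 3 counts in any library, and S100a9 led with 35, 23 and 0 counts in the knockouts. Macrophage markers (10 genes) summed to 66.9, 262 and 22.4 CPM in the knockouts and 59.2 and 139 CPM in the controls, and 729 of the 935 counts in knockout 2 were Cd14. Endothelial markers (8 genes) summed to 118, 150 and 29.0 CPM in the knockouts and 0 and 97.2 CPM in the controls, where Pecam1, Cdh5 and Kdr had no count. Fibroblast and stellate markers (9 genes) summed to 47.9, 122 and 20.3 CPM in the knockouts and 14.8 and 222 CPM in the controls, and duct markers (8 genes) to 375, 1177 and 272 CPM in the knockouts and 770.2 and 653 CPM in the controls. Mesothelial markers (6 genes) summed to 8.24, 78.7 and 8.97 CPM in the knockouts and 88.9 and 27.8 CPM in the controls, with Wt1, Lrrn4 and Upk1b at 0 in all libraries. Hepatocyte markers (6 genes) summed to 58.3, 206 and 88.5 CPM in the knockouts and 0 and 27.8 CPM in the controls. Alb had 3, 9 and 7 counts in the knockouts and 0 and 2 in the controls, and Fabp1 had none in any library. The sum was carried by Ttr, which islets also express, with 111, 439 and 236 counts in the knockouts, and Ahsg, with 57, 268 and 2, and neither had a control count. Lymphocyte markers (8 genes) summed to 15.2, 66.7 and 22.4 CPM in the knockouts and 311 and 27.8 CPM in the controls, and islet markers (7 genes) to 172, 905 and 213 CPM in the knockouts and 104 and 680.5 CPM in the controls. Adipocyte markers (5 genes) summed to 12.7, 7.85 and 0.299 CPM in the knockouts and 0 and 347 CPM in the controls. All 25 counts of control 2 were Cidec, and Adipoq, Plin1, Lep and Retn had no control count. The 1 adipocyte marker tested was called lower (edgeR). The 5 erythroid markers had no count. Among the knockouts, the neutrophil and adipocyte sums, like Lcn2 and Lrg1, were highest in knockout 1 and lowest in knockout 3. The duct, islet, macrophage, lymphocyte, fibroblast, mesothelial, endothelial and hepatocyte sums, like Nupr1, C3, Socs3 and Cp, were highest among the knockouts in knockout 2. The part of these cells in the members' levels was not tested, and in bulk RNA a change in cell number and a change in RNA per cell cannot be told apart.

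**Figure D3:**
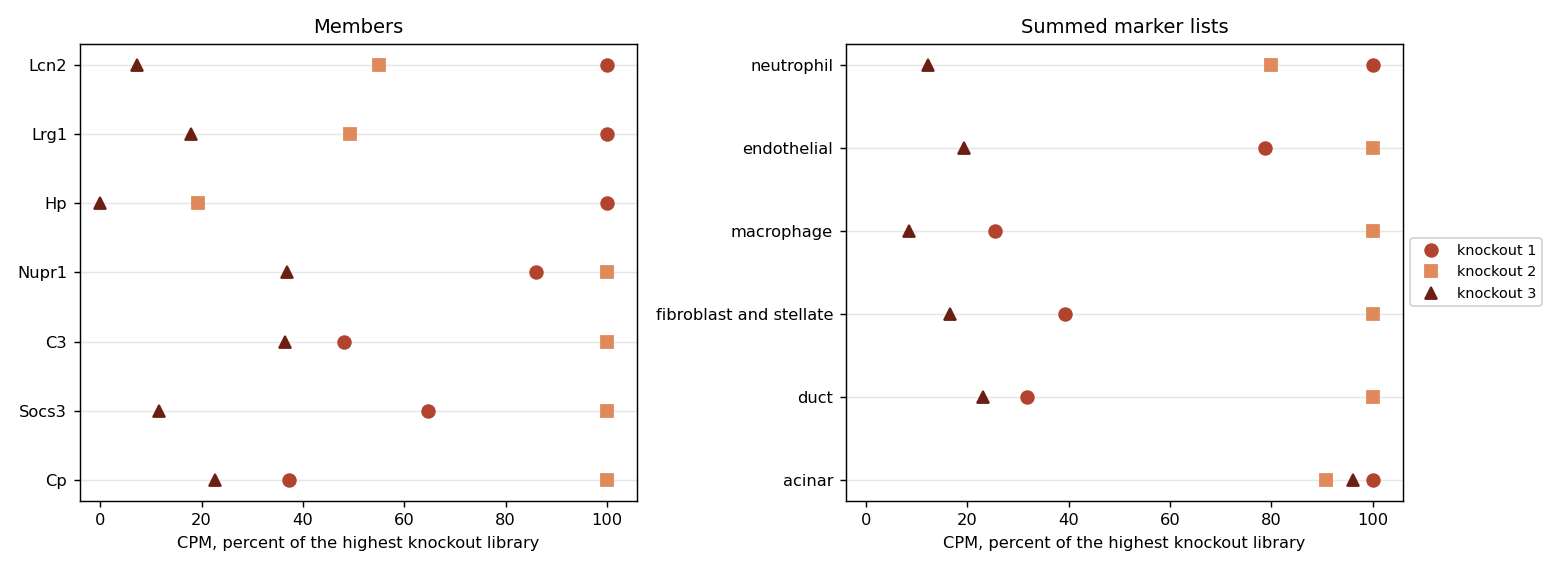
CPM in each knockout library as percent of the highest knockout library, for 7 members (left) and for the summed CPM of 6 marker lists (right). Lcn2, Lrg1 and Hp peak in knockout 1 and the other members in knockout 2, while the acinar sum stays between 90.7% and 100%.

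The rest of the pathway was read from lists of related genes, counted in the same edgeR test. Of 14 cytokine ligands, 3 were tested and none was called, with 0 at an unadjusted p under 0.05 (edgeR) and 0 by DESeq2 or limma-voom. Their median log2 fold change was -0.12, and -0.29 when genes lacking control counts were set at the floor. Il6 had 3, 10 and 0 counts in the knockouts and none in the controls, and Il22 and Il17a had none in any library. Lif, an interleukin-6-type cytokine, had 6.02, 12.3 and 1.2 CPM in the knockouts and 0 and 13.9 CPM in the controls. Osm, a relative of Lif, had 0, 0 and 0.299 CPM in the knockouts and 0 and 69.4 CPM in the controls. These were 1 count in knockout 3 and 5 counts in control 2. The pooled ratio of 0.00277 thus rests on control 2 alone, and Osm was not tested.

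Of 18 receptors, 14 were tested and none was called, with 0 at an unadjusted p under 0.05 (edgeR) and 0 by DESeq2 or limma-voom, a median log2 fold change of -0.32, and -0.84 at the floor. Lifr, the leukaemia inhibitory factor receptor, stood at 68.8, 81.8 and 19.7 CPM in the knockouts and 74.1 and 125 CPM in the controls. Il11ra1 stood at 26.0, 32.2 and 43.9 CPM in the knockouts and 104 and 0 CPM in the controls. Il1rl1, the receptor of Il33, had a single count, in knockout 2, and none in any other library. Of 18 signal transducers, 17 were tested and none was called, with 1 higher and 1 lower at an unadjusted p under 0.05 (edgeR), a median of 1.86, and -0.39 at the floor. Rela, a subunit of NF-kappaB, had 64.3, 145 and 9.27 CPM in the knockouts and 14.8 and 0 CPM in the controls (adjusted p = 0.468, edgeR). Nfkbiz, an NF-kappaB cofactor that acts on Lcn2, had 85.3, 155 and 12.3 CPM in the knockouts and 59.2 and 0 CPM in the controls. Both were lower in knockout 3 than in control 1. DESeq2 called 1 signal transducer lower and limma-voom none.

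Of 15 feedback inhibitors other than Socs3, all were tested and none was called, with 1 higher and 1 lower at an unadjusted p under 0.05 (edgeR), a median of -0.21, and -0.65 at the floor. DESeq2 called 1 higher and limma-voom none. Zfp36, which degrades cytokine mRNAs, had 134, 359 and 13.8 CPM in the knockouts and no control count, at least 8.09-fold higher than the floor (adjusted p = 0.0589, edgeR). Its order over the knockouts was that of Socs3, and Rela and Nfkbiz had the same order. Tnfaip3, an NF-kappaB inhibitor, had 19.6, 39.2 and 2.39 CPM in the knockouts and 14.8 and 55.6 CPM in the controls.

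Of 24 other acute-phase proteins, 6 were tested, all without a control count, and none was called, with 0 at an unadjusted p under 0.05 (edgeR) and 0 by DESeq2 or limma-voom. Their median log2 fold change was 7.49, and -0.93 at the floor. The most abundant were Ambp, the precursor of alpha-1-microglobulin and bikunin, with 14.6, 46.0 and 22.4 CPM in the knockouts, and F3, tissue factor, with 10.8, 31.9 and 0.299 CPM. Of the other tested members of the list, Lbp had 35, 84 and 6 counts in the knockouts (adjusted p = 0.575, edgeR) and Crp 19, 77 and 7 (0.582, edgeR). Serpina3n had 18, 40 and 0 counts (0.604, edgeR) and Serpina3g 24, 15 and 6 (0.622, edgeR). Among those not tested, Saa1 had 4 counts and Saa2 had 1 over all libraries, 2 genes so alike that reads can be lost between them, Apcs had 1, 12 and 1 in the knockouts, and Fgb, Hamp and A2m had none. Of 20 complement genes other than C3, 10 were tested and none was called, with 1 higher and 1 lower at an unadjusted p under 0.05 (edgeR) and 0 by DESeq2 or limma-voom, a median of 6.05, and -1.26 at the floor. Clu, clusterin, which blocks the terminal complex, had 6188, 8078 and 4237 CPM in the knockouts and 2162 and 875 CPM in the controls (adjusted p = 0.107, edgeR). Cfd, factor D, had 65.0, 26.3 and 4.48 CPM in the knockouts and 44.4 and 0 CPM in the controls.

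Of 23 further genes of iron and copper handling, 16 were tested and none was called, with 1 higher and 0 lower at an unadjusted p under 0.05 (edgeR), a median of 0.12, and -0.05 at the floor. DESeq2 called 1 higher and limma-voom none. Mt1, a metallothionein, had 2831, 2482 and 1719 CPM in the knockouts and 178 and 556 CPM in the controls (adjusted p = 0.0772, edgeR). Mt2 had 639, 447 and 1285 CPM in the knockouts and 311 and 97.2 CPM in the controls (0.393, edgeR). Slc22a17, a receptor of LCN2, had 5, 30 and 8 counts in the knockouts and none in the controls, which were too shallow to show a gene at this level. Steap1 had 1, 1 and 0 counts in the knockouts and 2 and 0 in the controls, and Steap2 had 1, 5 and 3 in the knockouts and 3 and 0 in the controls. These are raw counts, and the knockout libraries were far deeper, so they do not compare directly between the groups.

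Other settings changed some of these counts of calls. With TMM factors computed without Rn45s and Lars2, 1 receptor, 1 feedback inhibitor (Zfp36, adjusted p = 0.0446, edgeR) and 1 metal-handling gene (Mt1, 0.0496, edgeR) were called higher. With no low-count filter, 1 ligand, 2 receptors, 1 signal transducer and 2 complement genes were called lower and Zfp36 higher (0.0412, edgeR). With at least 1 CPM in 2 libraries, 1 receptor and 1 signal transducer were called lower and Zfp36 higher (0.0398, edgeR). Without control 1, Clu (0.0333, edgeR) and 1 metal-handling gene were called higher and 1 receptor lower. Upper quartile factors, and leaving out control 2, each gave 1 signal transducer called lower. Mt1 was called higher without control 2 (0.0315, edgeR) and without knockout 3 (0.0467, edgeR), and Zfp36 without knockout 3 (0.0222, edgeR). None of the other acute-phase proteins was called in any setting counted by list.

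Of 20 other pancreatitis stress genes, all were tested, 6 were called higher and none lower, and the 6 were the Reg genes Reg1, Reg2, Reg3a, Reg3b, Reg3d and Reg3g, secreted lectin-like proteins of the injured pancreas. The list's median log2 fold change was 1.92, and 1.29 at the floor. Reg3b had 6440, 1324 and 1639 CPM in the knockouts and 14.8 and 27.8 CPM in the controls (adjusted p = 2.66e-07, edgeR), with a pooled ratio of 141. Reg2 had 2704, 697 and 379 CPM in the knockouts and 14.8 and 27.8 CPM in the controls (adjusted p = 0.000968, edgeR). Like Lrg1 and Lcn2, Reg2 and Reg3b were highest in knockout 1. Reg1 had 35932, 22509 and 20262 CPM in the knockouts and 5006 and 6874 CPM in the controls (adjusted p = 0.0136, edgeR). The Reg genes are close paralogs, and had been found high in these libraries before the list was written, so their count is no independent evidence. Over the other settings and left-out libraries the number of the 20 genes called higher ran from 0, with limma-voom or without knockout 1, to 6.

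**Figure D4:**
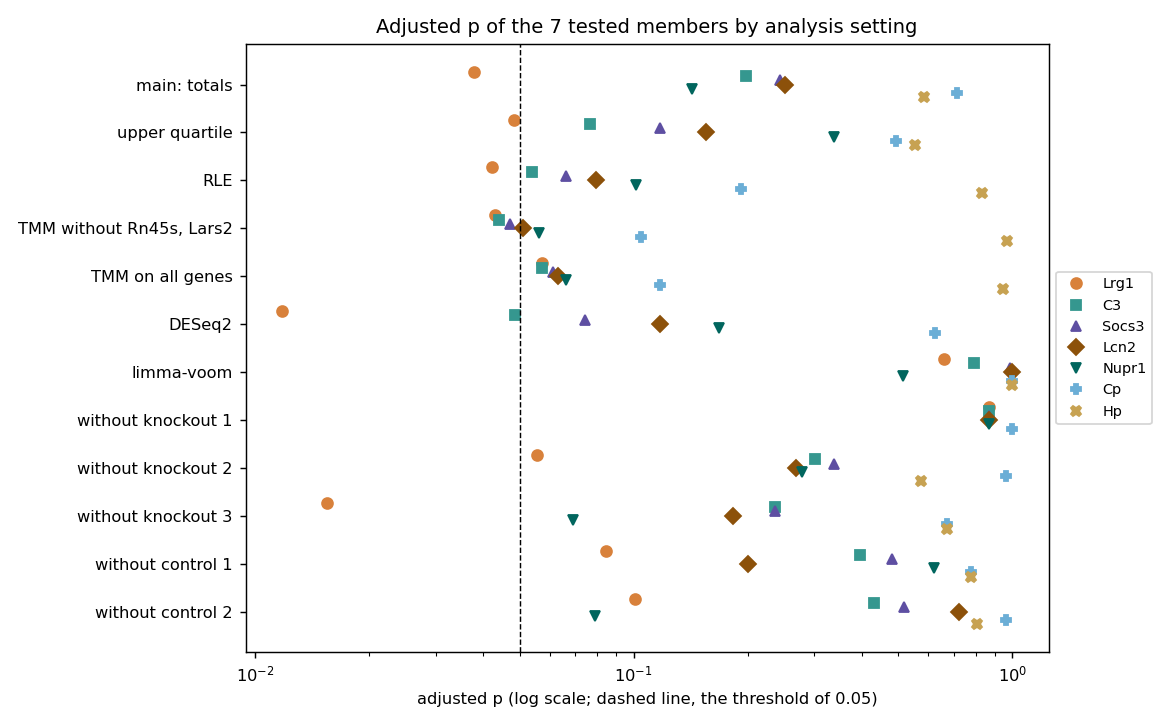
Adjusted p of the 7 tested members (symbols) on a log axis under 12 settings, with the threshold of 0.05 dashed. Lrg1 lies left of the line in the main test and 5 other settings shown, C3 in 2 and Socs3 in 1, and Nupr1, Lcn2, Cp and Hp in none.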

How the data were processed

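The files hold whole-number counts of reads per gene symbol, deposited by the authors for 5 mouse RNA-seq libraries. Tools listed in the submitters' processing notes, without roles, are Cuffdiff 2.2.1.5, Cuffnorm 2.2.1.2, HTSeq 0.9.1 and TopHat2 2.1.1, and the build is mm9. Per the labels' protocols, mRNA was captured on beads and libraries were made with a TruSeq RNA kit; that kit does not mark strand.

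The members and gene lists were chosen with earlier results of these data known. Library sizes were the totals without Rn45s and Lars2, with no further factor. Genes kept by filterByExpr (8291) were tested with edgeR 4.0.16 (quasi-likelihood, robust) in R 4.3.3, with Benjamini-Hochberg adjustment over all of them and calls at an adjusted p under 0.05. The SE of a log2 fold change was derived from the test, as its absolute value divided by the square root of the F statistic. Ratios of pooled counts had exact conditional binomial 95% intervals. Exon lengths came from GENCODE M21, matched by symbol. Alternatives used DESeq2 1.42.0, limma-voom (limma 3.58.1), other scalings and filters, thinning, a replicate block and libraries left out. From each gene list the text gives up to 3 called genes with the highest mean CPM, or with none called the 2 highest; other genes of the lists, and single markers, were named after their values were seen.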

Additional observations from a re-analysis of the deposited data

How the results depend on the processing

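The number of the 10 genes called higher, 1 with totals, was 0 with TMM on all genes, 3 with TMM factors without Rn45s and Lars2, 2 with DESeq2 and 0 with limma-voom, and it ran from 0 to 1 with a library left out. The number of all genes called higher, 16, was 5 with TMM on all genes, 147 with TMM without the 2 genes, 47 with DESeq2 and 0 with limma-voom (27 higher at an unadjusted p under 0.05), and ran from 0 to 19 with a library left out. The number called lower, 133, was 27 and 71 with the 2 TMM scalings, 81 with RLE, 354 with upper quartile factors, 898 with no low-count filter, 388 with at least 1 CPM in 2 libraries, 472 with DESeq2, 43 with limma-voom and 20 with the knockouts thinned to 69760 counts, and ran from 4 to 378 with a library left out. No member was called lower in any setting run. These counts do not compare directly, since the genes tested differed: 8291 with totals, 16968 with no low-count filter and 10967 with at least 1 CPM in 2 libraries. With the knockouts thinned, 295 genes and 2 members were tested (medians of 20 draws). There 6.78% of genes were called lower and 6.78% higher, against 1.6% and 0.193% with totals. The median log2 fold change of all genes, 0.22 with totals, was 2.05 and 1.93 with the 2 TMM scalings, 1.49 with RLE, 0.33 with upper quartile factors, 2.05 with no low-count filter, 0.83 with at least 1 CPM in 2 libraries, 0.18 with DESeq2 and -0.81 with limma-voom. It was 6.06 without control 1 and 5.57 without control 2. The log2 fold change of Hp, -1.91, was 6.89 without control 1, which held its 3 control counts, and -2.93 without control 2. Scaled to totals that include Rn45s and Lars2, the Nupr1 ratio was 21.7. With the replicate number as a block, 0 members and 4 genes were called higher and 5 lower. Deviations of same-numbered libraries correlated at -0.01 and 0.036, and knockout 3 has no partner. The deviations of the 2 controls mirror each other and rest on few counts, so this check cannot show whether the numbers pair the libraries. With 1 control left, it is assumed to vary like the knockouts. Causes of these shifts were not tested. Control depth limits every ratio except that of Nupr1: a gene under 21.5 CPM gives fewer than 3 control counts.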
